A study of Homo sapiens with 17 samples.

Results

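The comparison described here set the anti-ac4C pull-down of WT HEK293T RNA (IP) against the pull-down of the same kind of RNA with control immunoglobulin G (IgG), gene by gene. It used 5 of the 17 libraries of the series, 3 labelled WT IP and 2 labelled WT IgG, which were chosen by their labels alone. Of 23368 genes in the count table, 14751 had enough counts to be tested. HEK293T is an established human embryonic kidney cell line, which the labels call 293T. All groups were made from its polyadenylated RNA, isolated with oligo(dT) beads, and sequenced from libraries made by Smart-seq2, a PCR-amplified full-length cDNA method. The IP group was pulled down with an antibody to ac4C and the IgG group with control IgG. Pulled-down RNA was too scarce to be measured, and a set volume of it went into each library, so the values are relative within a library. WT input RNA (3 libraries), which no antibody had touched, was fitted with them. Libraries of cells treated with siRNA against TDP43 (siTDP43, labelled siTARDBP; 3 IP and 3 IgG) serve below only to show where the WT contrast differed. The WT cells carry no label of a control siRNA. Nothing in the labels says that libraries of a group came from separate cultures, so the p-values measure only the spread between these libraries, which may be technical.

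N4-acetylcytidine (ac4C) is a cytidine that carries an acetyl group. It is placed on tRNA, 18S rRNA and mRNA by NAT10, the only acetyltransferase known to do so in human cells, which works with THUMPD1 on tRNA and with box C/D snoRNAs on rRNA. In acRIP-seq, RNA bound by an anti-ac4C antibody is sequenced, and the IgG pull-down shows which RNAs stick to beads and antibody without recognition of the mark. The contrast of IP with IgG therefore asks which transcripts the ac4C antibody retained beyond the control antibody, while a contrast with input asks which transcripts either pull-down retained.

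The 3 IP libraries held 19615316 to 21066215 counts and the 2 IgG libraries 9022250 to 9466855. Between libraries of a group the gene counts correlated at Spearman 0.989 across genes in IP and at 0.948 in IgG, and no pair agreed within sampling noise (chi-square per degree of freedom 3.74 to 7.998). The HEK293T-expressed genes IGF2BP1, LIN28B, CDH2 and VIM were detected in all 8 WT libraries. PAX2, a kidney lineage factor, had 114 to 201 counts in IP and 0 to 2 in IgG. Of 6 markers of other cell types, KRT5 had no count in any WT library, and PTPRC, PECAM1, CD3E, MYH7 and ALB had at most 6 counts in each, apart from 26 counts of ALB in IgG replicate 2. Most low counts were even numbers (89.9% to 90.7% of counts from 1 to 20 in IP and 95.4% to 95.6% in IgG), the pattern given when both mates of a read pair are counted, so that a count of 4 may stand for 2 fragments. Levels below are CPM, counts relative to the library size after scaling by the trimmed mean of M-values (TMM), and are not adjusted for gene length, and log2 values are fitted IP over IgG differences in abundance unless another contrast is named.

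A gene was called when its fold change exceeded 2 and its adjusted p was below 0.05. By this rule 5186 genes were higher in IP than in IgG (35.2% of those tested) and 2629 were lower (17.8%). The median log2 fold change of all genes tested was 0.29. Both IgG libraries held at most 3 counts for 2488 of the genes tested, and 1989 of these were among the genes called higher. Such a gene could pass the filter on low counts only through another group, so it had to be higher somewhere, and its fold change is a bound. Among the 12083 genes with more counts in a library of both groups, 3197 were higher (26.5%), 2457 were lower (20.3%), and the median was 0.02. For these genes the median absolute difference between groups was 0.947 on the log2 scale, against a median SD of 0.109 between IP libraries and 0.160 between IgG libraries. The CPM of the IP and IgG libraries did not overlap for 84.4% of all genes tested. The larger the fold asked for, the more the calls consisted of genes near 0 in IgG. Above 10-fold, 1893 of 2589 higher genes had both IgG libraries at 3 counts or fewer, and above 50-fold 1559 of 1607 did. In the other direction 364 genes were lower by more than 10-fold.

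RRBP1, a ribosome-binding membrane protein of the rough endoplasmic reticulum, lies on chromosome 20 (hg19, 17594323 to 17662928). It was at 1279, 1313 and 1365 CPM in the IP libraries and at 87.5 and 112 CPM in the IgG libraries. All IP libraries were far above both IgG libraries, and the log2 fold change was 3.73 (SE 0.08, adjusted p = 3.57e-21). In input it was at 17.4 to 18.6 CPM, so that the IgG libraries were themselves above input. RRBP1 is shown by sequence because the study built a synthetic RNA from a site in it. The first line below is 30 bases of that site, with the 8 bases that the study's mutant RNA replaces in capitals, 7 of them cytidines. It lies at chr20:17602339-17602368, minus strand, in exon 15 of the canonical transcript, and is coding in each of the 6 transcripts that overlap it. The second line is a match within RRBP1 exons to the motif TCCCAGCT that the study named for its WT peaks, in capitals, at chr20:17608208-17608237, minus strand, in exon 10.
RRBP1 site: gaagcaccCgcCagCTCCCgCggagccctc
RRBP1 motif: gggcggagaacTCCCAGCTcacagagagaa
The counts here are per gene and cannot place the retained fragments at either site.

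RBBP6, a ubiquitin ligase and pre-mRNA 3′ end processing factor on chromosome 16 (24550908 to 24584183), was at 1122, 1279 and 1288 CPM in IP and at 59.8 and 81.4 in IgG. Its log2 fold change was 4.13 (SE 0.10, adjusted p = 1.83e-20). KLHL17, a Kelch protein that serves as a substrate adaptor of a ubiquitin ligase at actin-rich synapses, lies on chromosome 1 (895967 to 901099). It had 700, 827 and 755 counts in the IP libraries and 0 in both IgG libraries, while input held 6.18 to 7.03 CPM. Against 3 counts per IgG library, KLHL17 was at least 105-fold higher in IP. Thus 2 of the 3 genes that mark this pull-down were also well covered in IgG, and for the third the IgG depth sets the bound.

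The genes of the study's qPCR panel spread over a wide range. UPF3B, a nonsense-mediated decay factor, was at 2117 to 2465 CPM in IP and at 469 and 519 in IgG (log2 2.23, SE 0.07, adjusted p = 2.20e-18). ZFP36L2, which binds AU-rich elements, was at 28.5 to 29.2 CPM in IP and at 7.65 and 10.7 in IgG (log2 1.66, SE 0.18, adjusted p = 1.89e-08). LAMP1, a lysosomal membrane protein, was at 102 to 111 CPM against 35.6 and 45.9 (log2 1.38, SE 0.10, adjusted p = 1.09e-11). The IP and IgG libraries did not overlap for any of these genes. The housekeeping genes of the panel went the other way. The glycolytic enzyme GAPDH was at 1563 to 1821 CPM in IP and at 2975 and 3194 in IgG, a log2 fold change of -0.87 (adjusted p = 9.25e-13) that stayed under the 2-fold limit. The elongation factor EEF1A1 was at 1045 to 1382 CPM in IP and at 3127 and 3529 in IgG, which was lower by log2 -1.42 (SE 0.08, adjusted p = 2.61e-13). Of the 7 panel genes 5 were called higher and 1 lower, with a median of 1.66. The study chose this panel on these samples, so its direction is not independent evidence.

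No gene for the proteins that place ac4C, or that the study examined as adaptors of NAT10, passed the 2-fold limit in this contrast. NAT10 itself was at 56.3, 70.8 and 66.7 CPM in IP and at 92.9 and 64.6 in IgG, with groups that overlapped (log2 -0.29, adjusted p = 0.0229). Without IgG replicate 1 that difference was 0.00062, with the sign turned. THUMPD1 had a log2 value of -0.92, PCBP2 of -0.68, PCBP1 of -0.31 and TARDBP, which encodes TDP43, of 0.31. Exons of PCBP2 overlap those of MAP3K12 in the table.

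**Figure D1:**
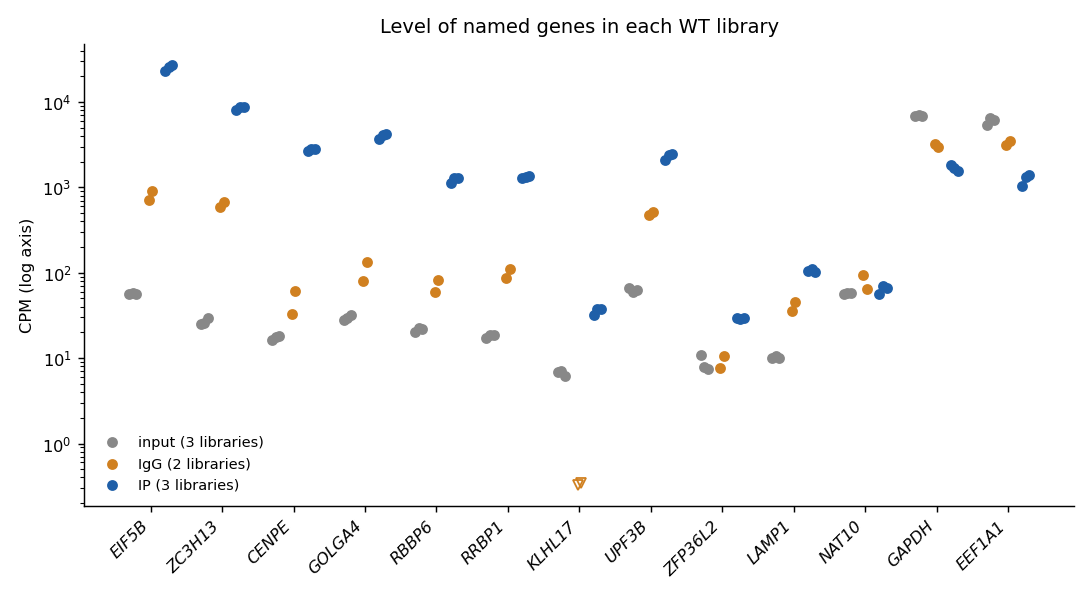
CPM of 13 genes in each WT library on a log axis, with input in grey, IgG in orange and IP in blue, 1 point per library; open triangles mark libraries at 3 counts or fewer, drawn at the CPM that 3 counts give. RRBP1 lies at 1279 to 1365 CPM in IP and at 87.5 and 112 in IgG, and for EIF5B to RRBP1 the IgG points themselves lie above input.

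The rule for naming genes picked the 12 largest rises with an IgG library above 3 counts, and all of them had only 4 to 8 counts over both IgG libraries. C10orf2, which encodes the mitochondrial DNA helicase Twinkle, had 1441, 1612 and 1393 counts in IP and 0 and 4 in IgG (log2 8.23, adjusted p = 8.14e-18). Its ratio of counts pooled per group, relative to library size, was 308, with a 95% counting interval of 120 to 1131. The interval covers counting error in IgG only and takes each count as a separate fragment. It is too narrow where both mates of a read pair were counted. The sterol sensor SCAP, an escort of SREBP, had 957, 817 and 887 counts in IP and 2 and 6 in IgG, a ratio of 92.2 with an interval of 46.8 to 214. The others were SCRN2, CAPN1 (a calcium-dependent protease), PDLIM2, FHIT (a dinucleotide hydrolase), TRAIP (a ubiquitin ligase of DNA repair), SPHK1 (a sphingosine kinase), ZDHHC11 (a palmitoyltransferase), SMPD2 (a sphingomyelinase), SPIRE2 (an actin nucleator) and GPR137, at log2 values of 6.52 to 8.03. All 12 sat near the limit of detection in IgG, and 7 of them differed little between IP and input, at log2 -0.45 to 0.20. CAPN1, at 32.5 to 37.9 CPM in IP, had 47.6 to 49.0 CPM in input, and SCRN2 and SCAP lay at log2 0.15 and 0.10 in IP over input. For CAPN1 the log2 value was -0.45 in IP over input and -7.71 in IgG over input, contrasts that share the input libraries.

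Where both IgG libraries were at 0, the largest rises were those of ZNF605, a zinc finger gene (941, 1021 and 949 IP counts, at least 134-fold), YJEFN3 (747, 849 and 834 counts, at least 112-fold), KLHL17, the progestin receptor family gene PAQR6 (565, 860 and 688 counts, at least 97.5-fold), the fibrillar collagen gene COL27A1 (693, 527 and 572 counts, at least 82.8-fold) and HEXDC (702, 475 and 500 counts, at least 77.4-fold). HEXDC shares exon positions with 2 other genes of the table, so its reads are uncertain. The same holds for SCRN2, SMPD2 and GPR137 above, which share exon positions with LRRC46, PPIL6 and BAD. Unlike CAPN1, the genes at 0 in IgG were also above input in IP, by log2 2.41 for KLHL17 to 5.59 for YJEFN3.

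The falls had the opposite shape, with deep IgG counts and almost none in IP. CHRDL1, a BMP antagonist, had 4, 0 and 0 counts in IP and 328 and 302 in IgG (log2 -9.02, adjusted p = 2.06e-14), and at most 0.218 CPM in input. ST8SIA2, a polysialyltransferase of neural cells, had 2, 2 and 4 counts in IP and 303 and 203 in IgG (log2 -7.76). RAB30, a Golgi GTPase, had 22, 22 and 21 counts in IP and 432 and 379 in IgG (log2 -5.48). Other large falls were those of SCAND3, the G protein subunit GNG2, C20orf201, TMEM116 and the flippase ATP10D, at log2 -5.14 to -6.74. The exon positions given for SCAND3 lie on 2 reference sequences. No fall with all IP libraries at 3 counts or fewer reached the coverage the rule asks for. Among genes with a mean of at least 100 IgG counts, a limit set after the values were seen, the cytokine gene TNFSF15 had 0 counts in every IP library and 262 and 235 in IgG, and was at least 199-fold lower in IP. The neuronal transcription factor MYT1L (244 and 168 IgG counts) was at least 164-fold lower, and SPRR2G, a cornified envelope gene with no count in any input library (268 and 190 IgG counts), at least 182-fold. These genes, little expressed in the input RNA, were present in both IgG libraries.

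The genes with the largest share of library counts also differed between the pull-downs. EIF5B, a GTPase that joins the ribosomal subunits at initiation, took 2.48%, 2.72% and 2.81% of the IP counts and 0.0688% and 0.0866% of the IgG counts. ZC3H13, a subunit of the m6A writer complex, took 0.862% to 0.911% of IP and 0.0567% and 0.0650% of IgG. The other 3 of the top 5 in IP were ribosomal protein genes, none of which passed the 2-fold limit. RPLP2 lay at log2 -0.00 (adjusted p = 0.983), RPS2 at 0.91 (adjusted p = 3.38e-14) and RPL8, higher in IgG, at -0.52. In IgG the largest share was that of PTMA, the acidic histone chaperone prothymosin alpha, at 1.03% and 1.21% against 0.509% to 0.598% in IP (log2 -1.13, adjusted p = 1.70e-12). PTMA exons overlap 3 microRNA genes of the table.

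Because the largest fold changes rested on few IgG counts, genes with a mean of at least 100 counts in the IgG libraries were also taken apart, a limit set after the values were seen. There were 7821, of which 794 were higher (10.2%) and 2046 lower (26.2%), with a median log2 of -0.36. This limit acts on one side of the contrast and so favours falls. A limit of 100 counts on the mean of the input libraries, which are on neither side, left 10857 genes with 3058 higher (28.2%) and 2042 lower (18.8%). Among the well covered rises CENPE was at the top. CENPE, the kinetochore motor (chromosome 4, 104026963 to 104119566), was at 2690, 2810 and 2848 CPM in IP and at 32.7 and 60.7 in IgG, a log2 fold change of 5.90 (SE 0.14, adjusted p = 1.29e-20). GOLGA4, a tether of the trans-Golgi (chromosome 3, 37284682 to 37408370), was at 3692, 4106 and 4272 CPM in IP and at 80.4 and 135 in IgG (log2 5.23, SE 0.13). EIF5B (chromosome 2, 99953834 to 100016728) was at 23157, 25915 and 27128 CPM in IP and at 711 and 908 in IgG (log2 4.97, SE 0.09). No IP library of these genes came near an IgG library.

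The 25 largest rises under that limit ran from log2 3.75 to 5.90, or 13.4-fold to 59.9-fold. Beside the above they included BOD1L, a replication fork factor (5.13), the centrosome and Golgi scaffold AKAP9 (4.89), the ciliary protein CEP290 (4.80), the pericentriolar scaffold PCNT (4.66), CENPF of the kinetochore (4.54), the chromatin regulator ANKRD11 (4.51), the paraspeckle RNA NEAT1 (4.48), the Golgi tether GOLGB1 (4.38), the spindle protein NUMA1 (4.31), the SR-rich splicing regulator NSRP1 (4.19), AHNAK (4.18), RBBP6, the nuclear envelope protein SYNE2 (4.03) and the chromatin remodeller ATRX (3.996). GOLGA8A (4.598) belongs to a family of near-identical copies and ANKRD19P (3.90) is a pseudogene, so their reads are uncertain. CEP290 shares exon positions with C12orf29, and NUMA1 with IL18BP and LRTOMT. All 25 were also above input in IgG, 17 of them by more than 2-fold with adjusted p under 0.05, with a median log2 of 1.69 in IgG over input beside 5.83 in IP over input. The limit on IgG counts itself favours genes above input in IgG. How many of all genes under that limit were above input was not counted, so this is no trait particular to the 25. EIF5B lay at 3.84 in IgG over input.

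In sequence these genes were longer and richer in purines by their medians, with exceptions such as NEAT1 (triplet share 6.11%) and the short ANKRD19P (2.31 kb). These features played no part in choosing the genes. The triplets and purine stretches below were not among the features planned beforehand, and the triplets were singled out of all those counted. Their values describe these genes and are no test. Their median exonic length was 7.96 kb, against 3.11 kb for all 7821 genes, and their median purine content 57.4% against 50.8%. Their median GC content was 40.9%, against 48.9% for the 7821 genes and 45.1% for those with exons of at least 5 kb. The triplets GAA, AAG and AGA, counted on the sense strand with overlaps, made up a median of 11.3% of exonic triplets against 6.24%. A stretch of 30 bases with at least 27 purines was present in 25 of the 25, against 35.7% of the 7821 genes and 59.6% of the 1842 with exons of at least 5 kb. The most purine-rich 30 bases of 6 of them and of ZC3H13 are given below to show this feature, beside those of EEF1A1, which was lower in IP, with every GAA, AAG or AGA in capitals.
CENPE: AAGGAAaAAGAgGAAatGAAAAGAgtacag
GOLGA4: gGAAGAGAAAGAAGAAcagtataaaaAAGg
EIF5B: aaAAGgGAAaAAGAAaaAAGAGAAaaaaaa
CEP290: GAAacAAGttaaAAGAGAAAGAggggGAAG
AKAP9: gAGAAaaaacAGAGAGAGAAAGAAAAGAAa
ZC3H13: gAGAAAGAGAAGAGAGAGAGAgggAGAGAg
RBBP6: AAGAAGAAGAAGAAaAAGAAGGAAAAGAAa
EEF1A1: AGAAGAGAtatgagGAAattgttAAGGAAG
These lie at chr4:104066267-104066296 (minus), chr3:37368354-37368383 (plus), chr2:99976783-99976812 (plus), chr12:88465607-88465636 (minus), chr7:91709407-91709436 (plus), chr13:46549605-46549634 (minus), chr16:24583566-24583595 (plus) and chr6:74228756-74228785 (minus), in hg19, and each overlaps annotated coding exons. EIF5B, ZC3H13 and RBBP6 have 30 purines of 30, CENPE, GOLGA4 and CEP290 have 27, AKAP9 has 29 and EEF1A1 has 24. EEF1A1 does not stand for all genes that were lower in IP. Among the large falls named above, the most purine-rich 30 bases held 30 purines in MYT1L, 25 in TNFSF15 and 20 in SPRR2G.

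The share of the triplets was then set against the size of the rise. Among genes well covered in IgG, 46 genes were more than 8-fold higher in IP, and 37 of them fell in the decile of genes with the highest share of the triplets, which held 782 genes. In that decile 19.1% of genes were called higher, against 5.75% to 15.8% in the others, while 25.1% were called lower. Among the 10857 genes chosen by input counts, by contrast, 1156 were more than 8-fold higher and the top decile held 124 of them and the lowest decile 153. Over all genes tested the Spearman correlation of the triplet share with the log2 fold change was -0.13 (n = 14751), and under the IgG limit it was -0.10 (n = 7821). These are descriptions by a feature not planned beforehand, across genes, which are not independent replicates.

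**Figure D2:**
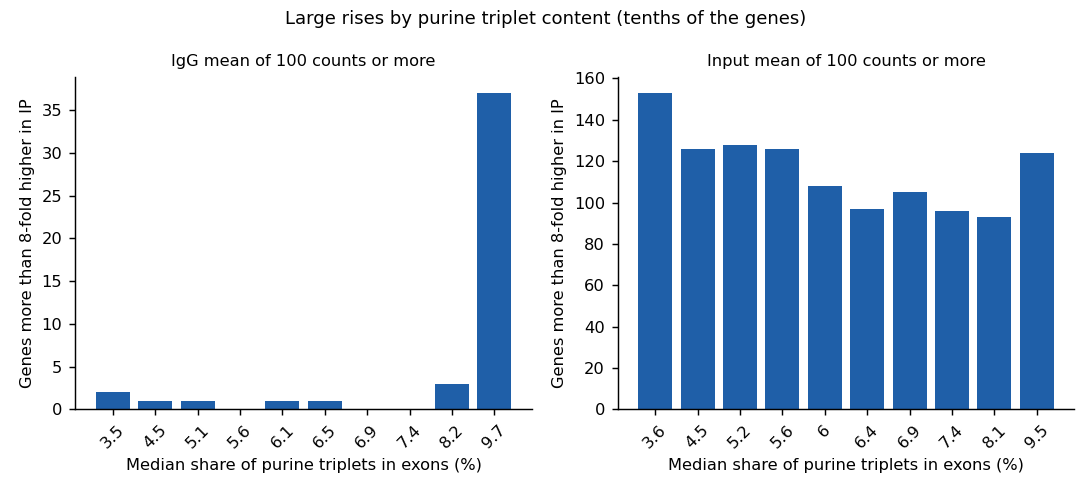
Number of genes more than 8-fold higher in IP than in IgG (vertical axes) in deciles of the genes ordered by the share of exonic triplets that are GAA, AAG or AGA (horizontal axes, median percent of each decile). Among genes with 100 or more IgG counts on average (left) 37 of 46 lie in the last decile, and among genes with 100 or more input counts (right) 124 of 1156 do.

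Gene groups were compared with all genes tested by counts and medians alone, since they were listed with earlier results of these data known. Golgins and related tethers of the Golgi and centrosome, long coiled-coil proteins, had 13 of 26 members higher (50%, against 35.2% of all genes) and 3 lower, with a median log2 of 1.07 and no member at the IgG floor. Besides GOLGA4, AKAP9 and CEP290 the higher members included TRIP11 (3.13), GCC2 (3.05) and GOLGA2 (2.82), and the lowest was the dynein adaptor HOOK3 (-1.37). Of the kinesins and kinetochore genes 23 of 69 were higher and 10 lower, a share near that of all genes. Their extremes ran from KIF27, with 203, 160 and 172 IP counts and none in IgG (at least 24.7-fold), to KIF12 (log2 -4.26).

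RS-domain and SR splicing proteins had 18 of 48 members higher (37.5%) and 2 lower (4.17%, against 17.8% of all genes), with a median of 0.71. Among them were LUC7L, a U1 snRNP-associated factor (3.86), the cyclophilin PPIG (3.64), the splicing regulator PNN (3.44) and the U2 snRNP auxiliary factor U2AF2 (2.92), while RSRC1 was lower (-1.22). Of the chromatin remodellers 16 of 39 were higher (41.0%) and 3 lower, with a median of 0.51. SMARCA2 (4.29, with 6 and 26 IgG counts), ATRX and BPTF (2.57) were among the higher members, and CHD9 (-1.62) and ARID2 (-1.54) were lower. The 3′ end processing genes had 7 of 23 higher (30.4%, against 35.2% of all genes) and 2 lower, with RBBP6 and the termination factor PCF11 (3.60) at the top and the endonuclease complex subunit CPSF2 (-1.68) at the bottom.

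Beside 35.2% higher and 17.8% lower over all genes, 21.1% of the nonsense-mediated decay genes were higher and 21.1% lower. Among them UPF2 (2.61), UPF3B, UPF3A (1.17) and EIF4A3 (1.01) were higher, and NBAS (-1.76), SMG9 (-1.13) and SMG6 (-1.09) were among the 4 that were lower, of 19 tested. In the rough ER and translocon group 5 of 23 were higher (21.7%), led by RRBP1, TRAM2 (2.74) and the kinesin-anchoring kinectin KTN1 (1.77), and 6 were lower (26.1%), among them the translocon-associated TRAM1 (-2.50) and the lectin chaperone CANX (-1.33). The paralogs TRAM1 and TRAM2 thus lay on opposite sides. The median of that group was -0.55.

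Of 83 cytosolic ribosomal protein genes 3 were higher (3.61%) and 17 lower (20.5%), with a median of -0.51. RPL10 (2.13), RPL17 (1.86) and RPS28 (1.52) rose, and RPL39L (-2.87), RPL23 (-1.86) and FAU (-1.74) were lower. RPL10 shares exon positions with DNASE1L1, and ribosomal protein genes have processed copies elsewhere in the genome, so reads that map to several copies are missing from these counts of uniquely mapped reads. Mitochondrial ribosomal protein genes had 24 of 76 lower (31.6%) and 5 higher, with a median of -0.55, from MRPS28 (-2.68) to MRPL48 (2.74). Genes of oxidative phosphorylation had 22 of 83 lower (26.5%) and 9 higher, with a median of -0.46. NDUFC2 (-2.18) and NDUFB5 (-2.15) of complex I and SDHB (-1.39) of complex II were lower, as was COX8C (-2.70) of complex IV, while SDHA (1.15) and SDHC (1.02) of the same complex II were higher. COX6B2 of complex IV, at the IgG floor, had 34, 34 and 44 counts in IP and 2 and 0 in IgG. Translation initiation factors had 9 of 46 lower and 6 higher, with EIF2A (-2.67) and EIF5B at the ends. Proteasome genes had 9 lower and 7 higher of 45. The immunoproteasome subunit PSMB9, whose exon positions lie on 8 reference sequences, was at -2.09. The assembly chaperone PSMD5, at the IgG floor, had 136, 124 and 88 counts in IP and 0 and 2 in IgG. Glycolytic genes had 2 lower and 3 higher of 17, from HK2 at -2.08 to PGAM1 at 2.15. Rises made up 3.61% to 17.6% of these groups, beside 35.2% of all genes, 26.5% of those measured in both groups and 9.08% of those at 100 CPM or more in input. Falls made up 11.8% to 31.6% of them, beside 17.8%, 20.3% and 19.7% of the same 3 sets. The shares of falls in the cytosolic ribosomal, initiation and proteasome groups were near these.

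**Figure D3:**
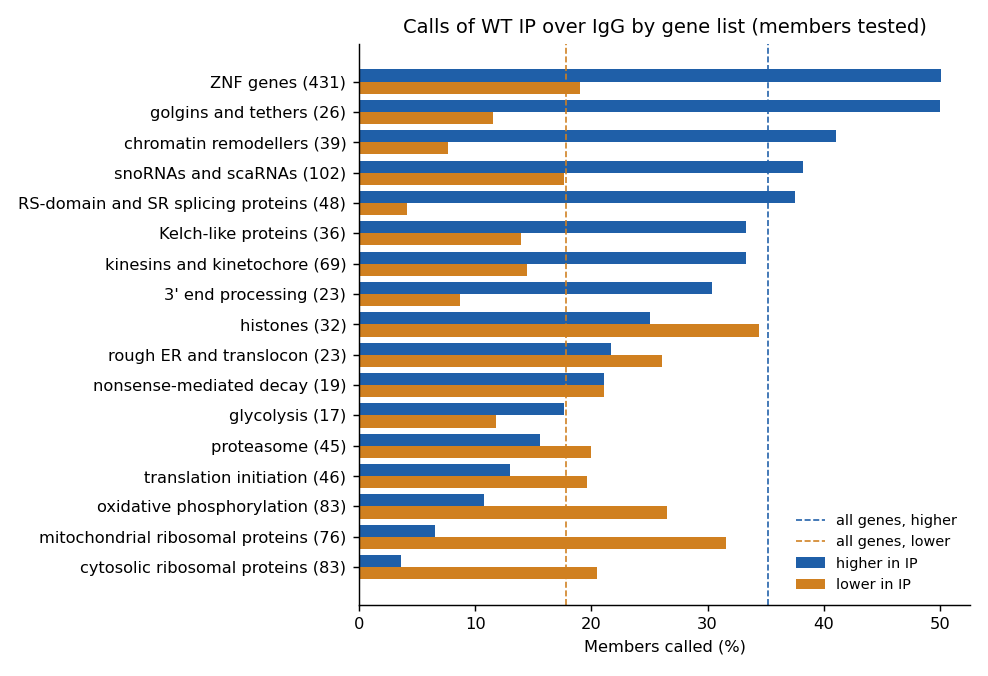
Share of tested members called higher (blue) or lower (orange) in IP than in IgG, in percent, for each list with at least 15 members tested (number in brackets); dashed lines give the shares of all 14751 genes, 35.2% and 17.8%. Golgins and ZNF genes have the highest shares of rises, and cytosolic ribosomal protein genes the lowest at 3.61%.

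In zinc finger genes named ZNF the rises were many but partly set by IgG depth. Of 431 tested, 216 were higher (50.1%) and 82 lower (19.0%), with a median of 1.23. Both IgG libraries were at 3 counts or fewer for 109, and among the 319 measured in both groups 120 were higher (37.6%, against 26.5% of all such genes) and 79 lower (24.8%, against 20.3%). The Kelch-like genes, KLHL17 among them, had 12 of 36 higher and 5 lower, with KLHL4 at -2.85. Among the 26 measured in both groups 7 were higher. Histone genes had 8 of 32 higher and 11 lower (34.4%, against 17.8% of all genes). Of the 21 measured in both groups 2 were higher and 9 lower (42.9%, against 20.3% of all such genes). HIST2H2BC was at least 5.05-fold higher (26, 41 and 42 IP counts and none in IgG), and HIST1H4A had no IP count and 46 and 44 IgG counts. Most replication-dependent histone mRNAs lack a poly(A) tail. Small nucleolar and Cajal body RNAs were mostly at the floor in IgG. SNORA61 was at least 9.98-fold higher (78, 81 and 58 IP counts and none in IgG), while SNORD76 had no IP count and 66 and 31 IgG counts. Of 102 tested, 39 were higher and all 39 had both IgG libraries at 3 counts or fewer, while of the 22 measured in both groups 0 were higher and 11 were lower by edgeR's test.

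By RNA class, 4534 of 13473 protein-coding genes were higher (33.7%) and 2438 lower (18.1%). Long noncoding RNAs were higher more often, 169 of 301 (56.1%), with a median of 2.33. Of the 157 measured in both groups 56 were higher (35.7%, against 26.5% of all such genes). Of 9 small nuclear RNAs 7 were lower (77.8%, against 17.8% of all genes) and 1 was higher, with a median of -2.22. Also lower were the RNA subunits of RNase MRP (-4.08) and RNase P (-2.30). Classes come from current gene symbols and synonyms, and 550 genes tested had no match.

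The share of calls differed with how abundant a gene was in input. In the decile of genes with the lowest input CPM (median 0.249) 59.3% were higher in IP than in IgG, and in the highest (median 251 CPM) 8.34% were. A gene almost absent from input could pass the filter on low counts only through IP or IgG. The shares in the lowest deciles are therefore partly set by the filter. The share of lower genes ran only from 13.4% to 20.7%. In the lowest decile 58.3% of genes had both IgG libraries at the floor. Among genes measured in both groups the share of higher genes still went from 40.4% in the third decile to 8.28% in the last, and was 29.6% in the first. The IgG libraries were shallower than the IP libraries, and with IP thinned to the IgG total 4766 genes were higher and 2622 lower.

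**Figure D4:**
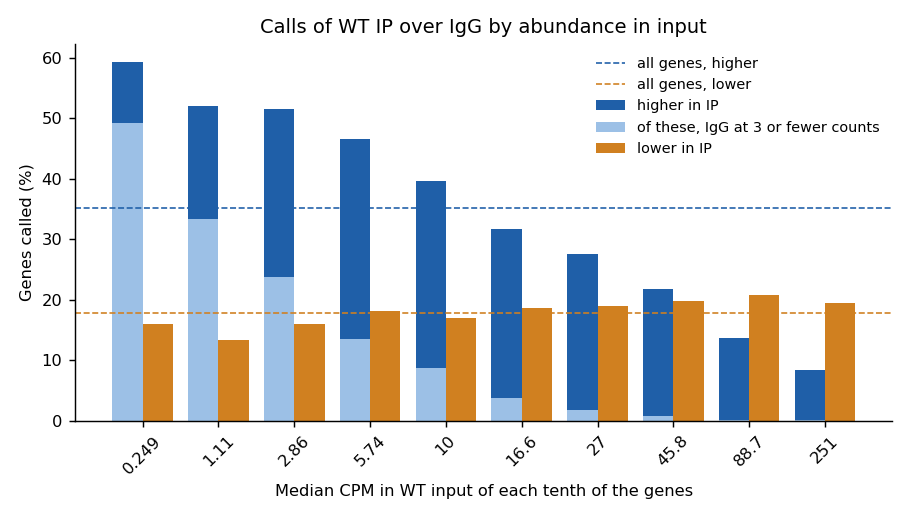
Percent of genes called higher in IP than in IgG (blue, with the light part for genes with both IgG libraries at 3 counts or fewer) or lower (orange), in deciles of the genes ordered by CPM in WT input, each labelled with its median CPM; dashed lines give all genes tested. The share of higher genes goes from 59.3% in the first decile, where it is partly set by the filter on low counts, to 8.34% in the last.

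Base composition and length of exons, read from the genome at the positions in the count table, were compared in the same way. In the decile of genes with the lowest GC content (median 37.6%) 25.5% were higher and 27.8% lower, and in the highest (median 64.6%) 47.9% were higher and 9.49% lower. The Spearman correlation of GC content with the log2 fold change was 0.19 (n = 14751 genes) and 0.21 among the 12083 genes measured in both groups. That of input CPM was -0.35 over all genes tested and -0.17 among those measured in both groups. The filter on low counts has a part in both values. That of exonic length was -0.03 over all genes tested, and 32.1% to 38.8% of genes were higher in every decile of length. The motif TCCCAGCT, searched on the sense strand within exons, was present in 2912 of the genes tested. Of these 35.2% were higher and 17.7% lower, against 35.1% and 17.9% of the 11839 genes without it.

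The contrast was then set beside the same contrast in siTDP43 cells, which shares no library with it. Of the 5186 genes higher in WT, 3989 were tested in siTDP43, where 1659 of them were higher (41.6%, against 33.7% of the 12556 genes tested in both and 34.0% of all tested in siTDP43) and 713 lower. The 1659 were 39.2% of the 4235 genes higher in siTDP43 that were also tested in WT. Of the genes lower in WT, 2275 were tested in siTDP43, where 312 were lower (13.7%, against 14.8% of genes tested in both and 15.0% of all tested in siTDP43) and 779 were higher. Tested directly as an interaction over all 17 libraries, the IP over IgG difference was not the same in the genotypes for 9216 of 15165 genes (60.8%, adjusted p under 0.05). The siTDP43 IgG libraries held only 3013989 to 3436811 counts.

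The 25 well covered rises were chosen by their WT values, so a larger value in WT is partly set by that choice; it was larger by this test in 24. The differences below are from the fit over 17 libraries and need not equal the subtraction of the separate fits. In siTDP43 9 of the 25 were higher in IP than in IgG and 3 were lower, near the 34.0% and 15.0% of all genes tested there. CENPE was at 21.1 to 29.9 CPM in siTDP43 IP and at 1.58 to 4.14 in siTDP43 IgG, a log2 fold change of 3.15 against 5.90 in WT (difference 2.696, adjusted p = 4.15e-05). EIF5B was at 122 to 157 CPM in siTDP43 IP and at 89.97 to 98.5 in IgG (log2 0.60, difference 4.31, adjusted p = 2.61e-25). BOD1L turned over, with 3.95 to 6.10 CPM in siTDP43 IP and 47.6 to 58.0 in siTDP43 IgG (log2 -3.41, difference 8.49). NEAT1 turned over as well, from 4.48 to -1.95 (difference 6.38), and RRBP1 from 3.73 to -1.92 (difference 5.56, adjusted p = 2.61e-22). GOLGA4 (difference 3.10), AKAP9 (3.61), CEP290 (4.33), ZC3H13 (2.99), RBBP6 (4.48), LAMP1 (2.13) and UPF3B (1.13) all had the larger value in WT. PCNT, at 4.66 in WT and 3.53 in siTDP43, was the only one of the 25 for which the difference did not pass (1.07, adjusted p = 0.101). It passed without siTDP43 IgG replicate 3 (1.69, adjusted p = 0.00584), without WT IgG replicate 2 (1.31, adjusted p = 0.0482) and with DESeq2 size factors (1.30, adjusted p = 0.0494). NAT10 lay at -0.29 and -0.31, while EEF1A1 (difference -1.82) and THUMPD1 (-1.71) had the smaller value in WT. Among genes at 0 in WT IgG, KLHL17 was higher in siTDP43 IP as well, at 8.22 to 13.0 CPM against 0 in IgG. ZNF605 and HEXDC were too, and the differences of these genes did not pass. COL27A1 (17.7) and PAQR6 (11.5) had the larger value in WT.

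**Figure D5:**
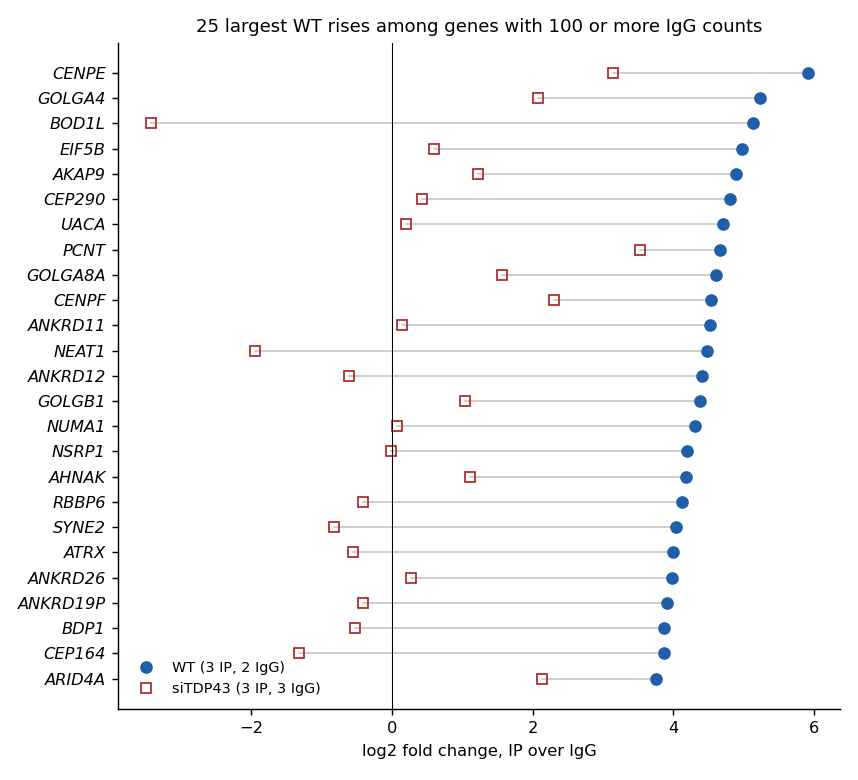
Log2 fold change of IP over IgG (horizontal axis) of the 25 largest WT rises among genes with 100 or more IgG counts on average, in WT (filled blue circles, 3 IP and 2 IgG libraries) and siTDP43 (open red squares, 3 IP and 3 IgG libraries). Every WT value lies between 3.75 and 5.90 and to the right of the siTDP43 value, with PCNT the only gene for which the difference did not pass the test with TMM scaling and all libraries.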

How the data were processed

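The authors deposited whole-number counts of reads per gene for 17 libraries, with exon positions and gene length, and no normalized values. The submitters' processing notes name Trim Galore (0.6.7), STAR (2.7.10a) and featureCounts (2.0.2); the methods give hg19 for human libraries and counts of uniquely mapped reads. The annotation release, strand setting and treatment of read pairs are not given in the sources used here. Without a stated strand setting, reads of genes that overlap or lie antisense cannot be told apart.

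From these counts, genes were filtered with filterByExpr (minimum count 10), scaled by TMM, and tested with edgeR's quasi-likelihood test (edgeR 4.0.16, R 4.3.3, two-sided, Benjamini-Hochberg over all genes tested) in the 8 WT libraries, with no replicate block. A gene was called when its fold exceeded 2 and its adjusted p was below 0.05. Genes at 3 counts or fewer in both IgG libraries were kept apart, and folds against IgG libraries at 0 were taken against 3 counts per library, in CPM. Counting intervals are exact Poisson intervals (95%) and, as PCR reads carry no molecular identifiers, cover counting error only. They take each count as a separate fragment and so are too narrow where both mates of a read pair were counted. The interaction with siTDP43 was fitted over all 17 libraries. Exon sequence was read from GRCh37, with transcripts of GENCODE lifted to it.

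Genes named were RRBP1, RBBP6, KLHL17, the qPCR panel, the 5 writer and adaptor genes and, among genes whose adjusted p was below 0.05 and whose counts averaged 100 or more over the IP and IgG libraries, with no overlap of the groups and no LOC symbol, the 12 largest rises and 10 largest falls measured, the 6 largest rises and 3 largest falls at the floor, the 5 largest shares of counts in each group, and the extremes of each list. Further list members and the 25 rises with a mean of at least 100 IgG counts were named after their values were seen. The members and lists were chosen with earlier results of these data known, and names that the list patterns caught wrongly (Argonaute genes, initiation factor kinases and others) were removed after values were seen. Some genes may not be reported here. Alternatives were DESeq2 (1.42.0) and limma (3.58.1) on log2(FPKM + 1), other scalings, filters, thresholds, depths and library sets, the replicate block and leaving out each library. The fit was tested on simulated data in which only 200 genes, all well counted, were changed. That does not test calls at the IgG floor or scaling when many genes differ.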

Additional observations from a re-analysis of the deposited data

Results flagged for a closer look

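The fold change of IP over IgG differed between WT and siTDP43 cells by the interaction test (adjusted p under 0.05) for each of the following genes. They were picked from the genes named above and are not all that passed. Of all 15165 genes tested, 60.8% passed. In log2 units, WT minus siTDP43, the differences were 2.696 for CENPE, 3.10 for GOLGA4, 4.31 for EIF5B, 8.49 for BOD1L, 3.61 for AKAP9, 4.33 for CEP290, 6.38 for NEAT1, 2.99 for ZC3H13, 4.48 for RBBP6, 5.56 for RRBP1, 1.13 for UPF3B and 2.13 for LAMP1. All of these were larger in WT, and several were chosen by their WT values. Other named genes passed with the smaller value in WT, among them EEF1A1 (-1.82), THUMPD1 (-1.71), PCBP1 (-0.92) and GAPDH (-0.53). The siTDP43 IgG libraries were shallower than those of WT, and the part of depth in these differences was not tested.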

How the results depend on the processing

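The counts of 5186 higher and 2629 lower genes stayed within 1.5 times under the other scalings, filters, library sets, thinning, halved counts, glmTreat and the DESeq2 Wald test. They moved with limma on log2(FPKM + 1) (3318 higher, 1684 lower) and with a fold above 5 (3333 and 749), and, as limits added after seeing the data, with a mean of at least 100 IgG counts (794 higher) or 100 input counts (3058 higher). Total count scaling moved the median of all genes from 0.29 to 0.42 on the log2 scale. It was 0.03 without the low-count filter and 0.04 with the DESeq2 Wald test, each over 18653 genes. The 3 marker genes, the panel and the writers, 13 genes in all, each had an adjusted p below 0.05, and 7 did with glmTreat against a fold change of 2. The correlation with GC content was 0.156 without the filter, 0.201 with a mean of at least 50 counts, 0.201 in the 5 IP and IgG libraries, 0.162 with DESeq2 and 0.228 with limma. NAT10, which was not called, ran from -0.52 without IgG replicate 2 to 0.00062 without IgG replicate 1. Its adjusted p was no longer below 0.05 with total count scaling, glmTreat, DESeq2, limma and without IP replicate 1. Leaving out 1 library at a time gave 4926 to 5178 higher genes and 2561 to 2683 lower. Of the counts within gene lists, 730 stayed within 1.5 times and 30 moved, most often with limma and glmTreat. The causes were not tested.

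The replicate numbers of IP and IgG correlated at only 0.0397 and 0.0216 in their deviations and were taken as numbers alone. With them as a block, 5070 genes were higher and 2588 lower. Folds near the floor are limited by the depth of the IgG libraries.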
